A study of Mus musculus with 96 samples.

Results

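Fatty acid oxidation genes and other targets of the nuclear receptor PPAR alpha were followed through a mouse liver series that combined phenobarbital exposure with tissue preservation. The 35 genes were listed by symbol, and all 35 were found among 47373 genes of the count table. They fall into 7 roles, which are the receptor with its regulators and secreted factors, fatty acid uptake and lipid droplets, the carnitine shuttle and fuel switch, mitochondrial beta-oxidation, peroxisomal beta-oxidation, thioesterases with a pantetheinase, and the Cyp4a omega-hydroxylases. Together they held between 0.256% and 0.881% of the counts of a library.

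Liver of mixed lobes came from 12 male B6C3F1 mice aged 10 to 11 weeks. Groups of 6 received either plain drinking water (control: 8A, 8C, 8D, 21C, 82B and 90C) or water with 600 ppm phenobarbital for 7 days (18B, 18D, 20B, 20D, 75C and 80B). Every liver is represented in 8 states, giving 96 libraries in 16 groups of 6, so that libraries of 1 animal are not independent of each other. All tissue was frozen first and then divided into 4 portions, of which the one that stayed frozen is called FR. Paraffin blocks were made after 3 months in 70% ethanol (OH), after 18 hours in 10% formalin with ethanol up to 3 months (18F), or after 3 months in formalin (3F). The remaining states are workups of the same 3-month formalin portion, so 8 states are not 8 pieces of liver. In TAE the isolated RNA was heated at 70 °C for 30 minutes in Tris-acetate-EDTA buffer. In Heat the lysate stood at 55 °C for 18 hours without a catalyst before the AllPrep kit. In CatAP and CatPL an organocatalyst, meant to take formaldehyde adducts off RNA, was present for those 18 hours, before the AllPrep or the PureLink kit. Kit and treatment of the RNA cannot be told apart where both differ.

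PPAR alpha is switched on by fatty acids, above all in the fasted liver, and binds DNA with its partner RXR at a direct repeat of the hexamer AGGTCA with 1 base between the copies. Its classical targets carry fatty acids into mitochondria and peroxisomes, oxidise them there, hydroxylate them at the omega end in microsomes, store them in droplets, and release the hormone-like proteins FGF21 and ANGPTL4. Phenobarbital acts in liver mainly through a different receptor, CAR, whose textbook target is Cyp2b10.

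The labels passed a check against Cyp2b10, which had at most 4.24 CPM (counts scaled to the effective size of the library) in any control library and at least 857 CPM in any phenobarbital library. Totals ran from 1264563 counts (control 8A in 3F) to 18442730, with a median of 11913139. Of 10 hepatocyte markers none was at 0 in any group. Their summed level in frozen liver ran from 102759 to 125595 CPM in controls and from 81214 to 110671 CPM in phenobarbital animals, with 2 of the 10 called lower (Tat and Hnf4a). The part of hepatocyte markers in the members' phenobarbital changes was not tested. All 6 adipocyte markers were at 0 in frozen controls and summed to at most 0.217 CPM in frozen phenobarbital livers. The 6 skeletal muscle markers reached 14.4 CPM in 1 frozen phenobarbital library against at most 0.881 CPM in controls. In bulk tissue, fewer cells of a type and less RNA per cell cannot be told apart.

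To show what the receptor's recognition letters look like near annotated starts, 32851 RefSeq promoters (GRCm38.p6, 250 bases before to 50 after the start) were searched. The search covered both strands for AGGTCA, any 1 base and AGGTCA again. Up to 2 mismatches were allowed among the fixed letters. A match lay in 3.86% of all promoters and in at least 1 promoter of 4.4% of 27025 genes. Promoters were at hand for 26 of the 35 members, and 6 of these members (23.1%) held a match, with Fabp1 alone at 1 mismatch. In the sixth, Slc25a20, the match lay after the transcription start. The other matches stand in capitals in the following stretches of 61 bases, written along the gene's strand. Those of Cd36 and Creb3l3 lie inside the annotated spans of their genes, before a start within the gene. The other Creb3l3 promoter, at the start of the gene span, had 4 mismatches at best. Fabp1 (chr6:71199788-71199848, plus strand), Acot4 (chr12:84038318-84038378, plus), Cd36 (chr5:17835923-17835983, minus), Creb3l3 (chr10:81092764-81092824, minus) and Plin2 (chr4:86670248-86670308, minus) are shown.
Fabp1: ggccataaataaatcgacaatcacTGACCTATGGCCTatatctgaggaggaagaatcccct
Acot4: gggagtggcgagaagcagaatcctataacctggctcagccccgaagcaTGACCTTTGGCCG
Cd36: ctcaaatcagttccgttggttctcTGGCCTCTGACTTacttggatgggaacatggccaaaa
Creb3l3: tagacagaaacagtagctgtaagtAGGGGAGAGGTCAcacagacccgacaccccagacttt
Plin2: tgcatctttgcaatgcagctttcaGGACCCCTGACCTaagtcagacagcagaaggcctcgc
A match describes letters only, and the series holds no measurement of binding. Of these 5 genes Plin2 fell with phenobarbital in frozen liver, while Fabp1, Acot4, Cd36 and Creb3l3 did not pass the test there.

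Phenobarbital was compared with control in frozen liver first, with edgeR's quasi-likelihood test over all genes, and a gene was called at a Benjamini-Hochberg adjusted p below 0.05. The receptor itself, 2 of its secreted products, 3 lipid droplet coats and the gate of mitochondrial import were lower, and 1 omega-hydroxylase was higher. The enzymes of beta-oxidation proper did not pass the test. Of the 35 members 30 had enough counts to be tested, and 7 fell (Ppara, Fgf21, Angptl4, Plin2, Plin4, Plin5 and Cpt1a) while Cyp4a12a rose. Among all 13929 genes tested, 3.53% fell and 5.89% rose. The median log2 fold change of the tested members was -0.16, beside -0.01 over all genes. Without control 21C the member median was -0.06 in frozen liver, -0.02 in OH and 0.01 in 18F. In the other states it was -0.03 in 3F, -0.02 in TAE, -0.23 in Heat, -0.12 in CatAP and -0.09 in CatPL. The count of called members dropped to 5 without control 8A, without 18D or without 80B.

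Ppara (chr15:85734983-85802819) encodes the receptor. Its level in frozen controls had a lowest value of 203, a median of 280 and a highest value of 372 CPM, against 122, 158 and 212 CPM after phenobarbital. Only treated animal 20D reached the control range, and 5 of 6 treated animals lay below the lowest control. The log2 fold change was -0.82 ± 0.15 (SE, n = 6 and 6, edgeR adjusted p = 0.00500). Fgf21 (chr7:45613886-45615490), a fasting hormone made by the liver, ran from 1.82 through a median of 4.04 to 8.89 CPM in controls and from 0.187 through 0.971 to 2.61 CPM in treated animals. The change was -2.07 ± 0.50 (edgeR adjusted p = 0.0202), on few counts and with ranges that overlapped.

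Angptl4 (chr17:33773750-33781830), a secreted inhibitor of lipoprotein lipase, had 32.7, 55.4 and 131 CPM as lowest, median and highest control and 13.5, 27.1 and 44.4 CPM in treated livers. The highest control was 21C. The change of -1.26 ± 0.35 passed the test (edgeR adjusted p = 0.0349) and lost the call without any one of 8A, 21C, 82B, 18D, 75C or 80B, with adjusted p from 0.0555 to 0.0767. Creb3l3, a membrane-bound transcription factor that works with PPAR alpha on Fgf21, was measured at 290 ± 42 CPM in controls and 280 ± 13 CPM in treated livers (SD, n = 6 each, log2 fold change -0.06, edgeR adjusted p = 0.725).

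The perilipins coat lipid droplets. Plin5 (chr17:56111601-56117596), which tethers droplets to mitochondria, gave the smallest p of the members. Its controls ran from 27.4 through 33.2 to 39.3 CPM and its treated livers from 18.2 through 20.9 to 21.7 CPM, without overlap. The log2 change was -0.69 ± 0.08 (edgeR adjusted p = 0.000156). Plin2 (chr4:86648386-86670060), the main droplet coat of hepatocytes, ran from 337 through 418 to 927 CPM in controls and from 241 through 281 to 335 CPM in treated livers. These ranges did not overlap either, and the highest control was again 21C. Its change was -0.78 ± 0.21 (edgeR adjusted p = 0.0306), and -0.51 ± 0.11 without 21C (adjusted p = 0.0116). The Plin2 call was lost without 8A, 18B, 18D, 75C or 80B, with adjusted p from 0.0546 to 0.0672.

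Plin4 (chr17:56100591-56109803), a droplet coat known mostly from adipocytes, was scarce, at 2.58, 4.27 and 8.96 CPM in controls and 1.58, 2.38 and 2.91 CPM in treated livers. It fell by 1.02 on the log2 scale (SE 0.28, edgeR adjusted p = 0.0372). That call was lost without any one of 8A, 8C, 21C, 82B, 18D, 20B, 20D or 80B, with adjusted p from 0.0544 to 0.0827, and with voom quality weights (0.105). Adipocyte markers were at or near 0 in these libraries, as given above. Cd36, a fatty acid transporter at the cell surface, moved the other way without passing the test in frozen liver, from 27.3 ± 6.4 to 39.0 ± 11.2 CPM (SD, n = 6 each, log2 fold change 0.51, edgeR adjusted p = 0.120). Macrophages and endothelium also express Cd36. The 6 Kupffer cell markers summed to 230 to 432 CPM in frozen controls and 273 to 621 CPM in treated livers, and the 6 endothelial markers to 459 to 542 and 402 to 546 CPM, with none called and none at 0. Their part in the Cd36 values was not tested. Fabp1, the cytosolic fatty acid carrier, had 2308 ± 478 and 2011 ± 590 CPM (SD, n = 6 each, edgeR adjusted p = 0.512).

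Cpt1a (chr19:3322334-3385733) encodes the outer membrane carnitine transferase that limits the entry of long chains into mitochondria. Controls had 423, 508 and 708 CPM as lowest, median and highest, and treated livers 280, 319 and 385 CPM. Every treated liver lay below every control. The log2 change was -0.76 ± 0.12 (edgeR adjusted p = 0.00172). The steps after it did not pass the test, with -0.15 ± 0.09 for Cpt2, the inner membrane transferase, and -0.20 ± 0.09 for Slc25a20, the carnitine carrier (edgeR adjusted p = 0.347 and 0.203). Pdk4, a kinase that shuts pyruvate out of oxidation, went from 8.18 ± 4.84 to 10.8 ± 3.3 CPM (SD, n = 6 each, edgeR adjusted p = 0.497). The muscle form Cpt1b, with 250 counts over 96 libraries, was too low to test in any state. Of its 50-base stretches 78.6% also occur in Gm44502, so its count is uncertain.

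None of the 8 mitochondrial beta-oxidation enzymes passed in frozen liver, and their median log2 fold change was -0.08. Acadvl, the dehydrogenase for very long chains, came nearest, with 344 ± 16 CPM in controls and 306 ± 24 CPM in treated livers (SD, n = 6 each, edgeR adjusted p = 0.0651, and 0.0158 with DESeq2). Acadm, the medium-chain dehydrogenase, went from 167 ± 30 to 176 ± 15 CPM (adjusted p = 0.730). Hadha and Hadhb, the subunits of the trifunctional protein, changed by -0.12 ± 0.09 and -0.14 ± 0.09 on the log2 scale (adjusted p = 0.432 and 0.396). Acaa2, Eci1 and Decr1, the thiolase, the isomerase and the dienoyl reductase of the pathway, lay between -0.04 and 0.03 (adjusted p from 0.871 to 0.932).

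In the peroxisome, Ehhadh, the bifunctional enzyme, and the thiolases Acaa1a and Acaa1b changed by -0.15 ± 0.27, -0.25 ± 0.08 and 0.05 ± 0.31 (edgeR adjusted p = 0.786, 0.0556 and 0.942). Acaa1a was called by DESeq2 (adjusted p = 0.0329) and by voom with quality weights (0.0370). Reads of the thiolase pair may be split between them, since 30.5% of the 50-base stretches of Acaa1b transcripts also occur in Acaa1a. The thioesterases, which cleave acyl-CoA, were scarce. Acot1 and Acot4 were tested in frozen liver and did not pass (adjusted p = 0.513 and 0.894). Acot2 and Acot3 were below the filter there. Acot1 and Acot2 share letters too (24.5% of the stretches of Acot2 occur in Acot1). Vnn1, the pantetheinase, went from 9.20 ± 7.49 to 11.5 ± 2.6 CPM (SD, n = 6 each, adjusted p = 0.670).

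The Cyp4a enzymes hydroxylate fatty acids at the omega carbon and are the textbook readout of PPAR alpha agonists in rodents. Cyp4a10, Cyp4a31 and Cyp4a32 are near copies of each other on chromosome 4. Over 1527 coding bases Cyp4a10 matched Cyp4a31 at 96.6% and Cyp4a32 at 97.2%, so the counts of each are uncertain where reads were shared out. The same 90 coding bases (bases 211 to 300, GENCODE M21 on GRCm38, plus strand) show letters that tell them apart. In Cyp4a31 (chr4:115565031-115565120) and Cyp4a32 (chr4:115602281-115602370) capitals mark bases that differ from Cyp4a10, and in Cyp4a10 (chr4:115519651-115519740) those at which any of the trio differ.
Cyp4a10: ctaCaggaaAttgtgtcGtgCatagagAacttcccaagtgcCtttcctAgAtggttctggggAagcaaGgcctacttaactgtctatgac
Cyp4a31: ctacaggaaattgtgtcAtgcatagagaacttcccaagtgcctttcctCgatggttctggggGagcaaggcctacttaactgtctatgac
Cyp4a32: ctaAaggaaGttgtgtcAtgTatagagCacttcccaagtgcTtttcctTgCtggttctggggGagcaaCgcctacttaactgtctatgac
In this window Cyp4a31 differs from Cyp4a10 at 3 bases and Cyp4a32 at 10. The window was chosen for its differences, and over the whole coding sequence Cyp4a32 is the closer of the pair.

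Cyp4a12a (chr4:115299046-115332815), the male-typical member of the family, rose. Frozen controls had 227, 248 and 295 CPM as lowest, median and highest, and treated livers 286, 334 and 396 CPM. The lowest treated liver overlapped only with control 21C, and the log2 change was 0.41 ± 0.08 (edgeR adjusted p = 0.00759). Of its 50-base stretches 48.9% occur in Cyp4a12b, which had 11.5 CPM in frozen controls and 18.5 CPM in treated livers (adjusted p = 0.283), so the split of counts within the pair is uncertain. Cyp4a10 ran from 0.811 through 1.72 to 30.9 CPM in controls and from 1.63 through 3.87 to 13.3 CPM in treated livers. Its log2 fold change was -0.43 ± 0.84 (adjusted p = 0.804). Without control 21C, which held the highest value, the sign turned to 1.61 ± 0.52 (adjusted p = 0.0781). Cyp4a32 had 30.0 ± 22.5 and 15.2 ± 6.1 CPM (SD, n = 6 each, adjusted p = 0.136). Cyp4a14 and Cyp4a31, at about 1 CPM, were below the filter in frozen liver.

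**Figure D1:**
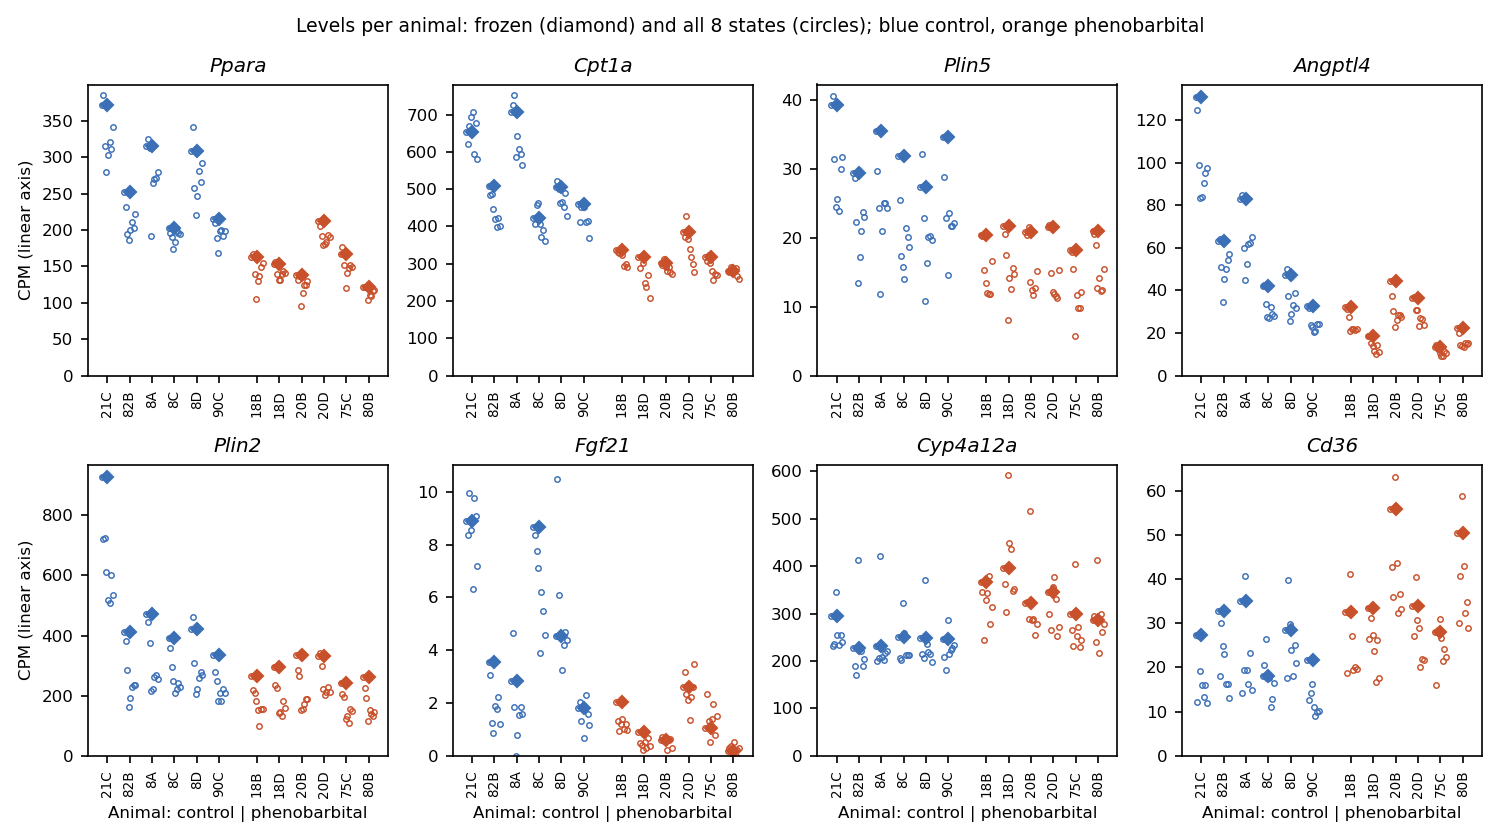
CPM on a linear axis for 8 members in each animal (x axis, controls blue, phenobarbital orange). Diamonds are the frozen state and open circles all 8 states of the same liver, and for Cpt1a every orange diamond lies below every blue one.

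The other 7 states repeat the comparison on the same 12 livers, so they are not independent repeats of the animals. Ppara and Cpt1a fell in all 8 states, between -0.82 and -0.71 and between -0.84 and -0.73 on the log2 scale. For Cpt1a the treated and control ranges did not overlap in any of the 8 states, and for Ppara in 3 of 8. Angptl4 fell in 7 states and had -1.06 in 3F (edgeR adjusted p = 0.114). Plin5 fell in 6 states, by up to 0.93 in Heat and CatAP, and had -0.45 and -0.49 in 18F and 3F (adjusted p = 0.0640 and 0.413). Cyp4a12a rose in 5 states. Fgf21, Plin2 and Plin4 each fell in 4. Cd36 rose in 4 states, OH, TAE, Heat and CatPL, by between 0.72 and 0.78. Acadvl fell in Heat and CatAP (-0.49 and -0.31) and Hadhb in Heat (-0.38). No other member was called in any state.

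Member counts can be read against all genes in each state. In OH, 7 members fell and 2 rose of 31 tested, while 2.16% of all genes fell and 4.82% rose. In 18F, 4 fell and 1 rose of 31, with backgrounds of 1.43% and 3.45%. In 3F, 2 fell of 31, with 0.446% of all genes lower and 1.66% higher. In TAE, 4 fell and 1 rose of 30, beside 0.941% and 2.35%. Heat had 8 falls and 2 rises of 29, beside 1.5% and 3.53%. In Heat the share of mitochondrially encoded counts also differed, at 5.82% ± 0.90 in controls and 10.8% ± 3.5 in treated libraries (SD, n = 6 each), and its part in these calls was not tested. CatAP had 6 falls of 30, beside 1.82% lower and 3.12% higher, and CatPL 6 falls and 2 rises of 30, beside 1.44% and 3.21%. With library totals in place of TMM scaling the split became 5 falls and 1 rise in CatAP and 4 falls and 2 rises in CatPL, while the share of higher genes among all called genes went from 63.2% to 82.6% and from 69.0% to 82.4%.

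**Figure D2:**
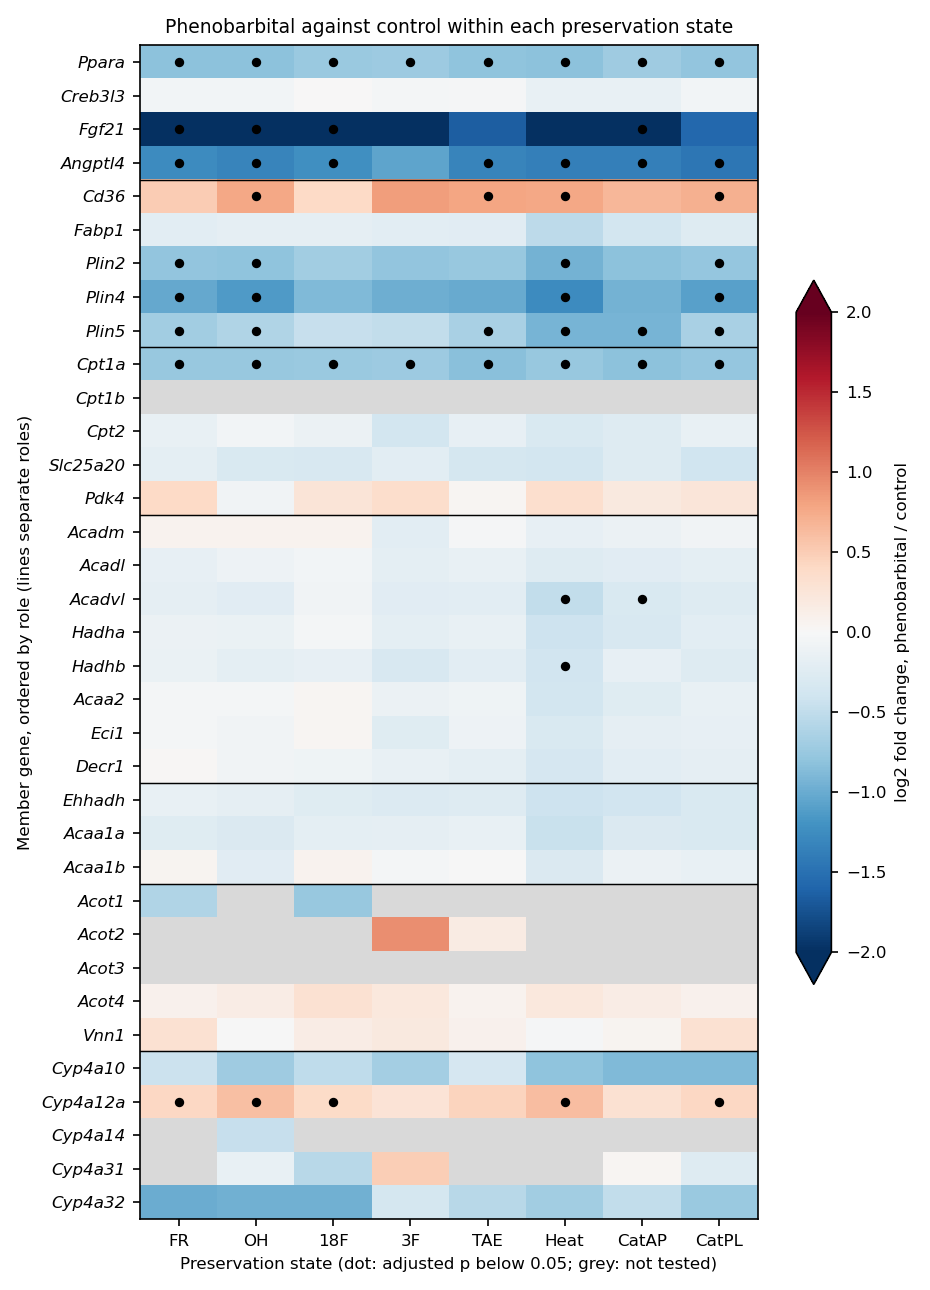
Log2 fold change of phenobarbital over control (colour, saturated beyond 2 in either direction) for the 35 members (rows, by role) in 8 states (columns). Dots mark adjusted p below 0.05 and grey cells were not tested, and rows of dots run through all 8 columns for Ppara and Cpt1a.

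Of the 53 calls over the 8 states, 27 held when any 1 animal was left out. These were the Cpt1a calls in 8 states, Ppara in all but 3F, Plin5 in 6, Cyp4a12a in FR, OH, Heat and CatPL, Fgf21 in FR and Plin4 in OH. The other 26 were lost in at least 1 omission. Each animal ended some calls when left out, from 5 calls for 90C and for 20D to 20 for 80B, with adjusted p up to 0.111.

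Summing the 8 libraries of each animal gives 6 against 6 animals with deeper counts and brought all members but Acot3 past the filter. Of 34 tested, 8 fell and 2 rose, beside 2.53% and 4.91% of 18478 genes. To the frozen calls this added a rise of Cd36 (19.3 to 31.1 CPM, log2 0.68 ± 0.17, edgeR adjusted p = 0.0308) and a fall of Acadvl (-0.23 ± 0.06, adjusted p = 0.0410). Without control 21C the count was 5 falls and 1 rise, and Angptl4, Fgf21, Acadvl and Cd36 no longer passed (adjusted p from 0.0603 to 0.0811). The libraries of 1 liver are not 8 animals, and the sums treat them as 1.

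Whether preservation altered the phenobarbital effect was asked with an interaction between treatment and state, against frozen liver. Without the animal as a block, no member was called among 33 tested in any of the 7 preserved states, and 0% of all genes were. That fit leaves out the pairing of libraries by animal, so the spread between animals stays in its error. Over those 231 member tests edgeR gave 3 unadjusted p under 0.05 and DESeq2 also 3. With the animal as a block there were 37, the lowest adjusted p being 0.208, for Decr1 in Heat, and 12 of the 37 fell in Heat. The share of all genes with unadjusted p under 0.05 in these fits was not taken. The counts therefore cannot be read as a trait of the members. For Ppara the difference from the frozen effect lay between -0.01 and 0.10 and for Cpt1a between -0.08 and 0.03 (log2, without the block). Differences that were not called are not shown to be absent.

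**Figure D3:**
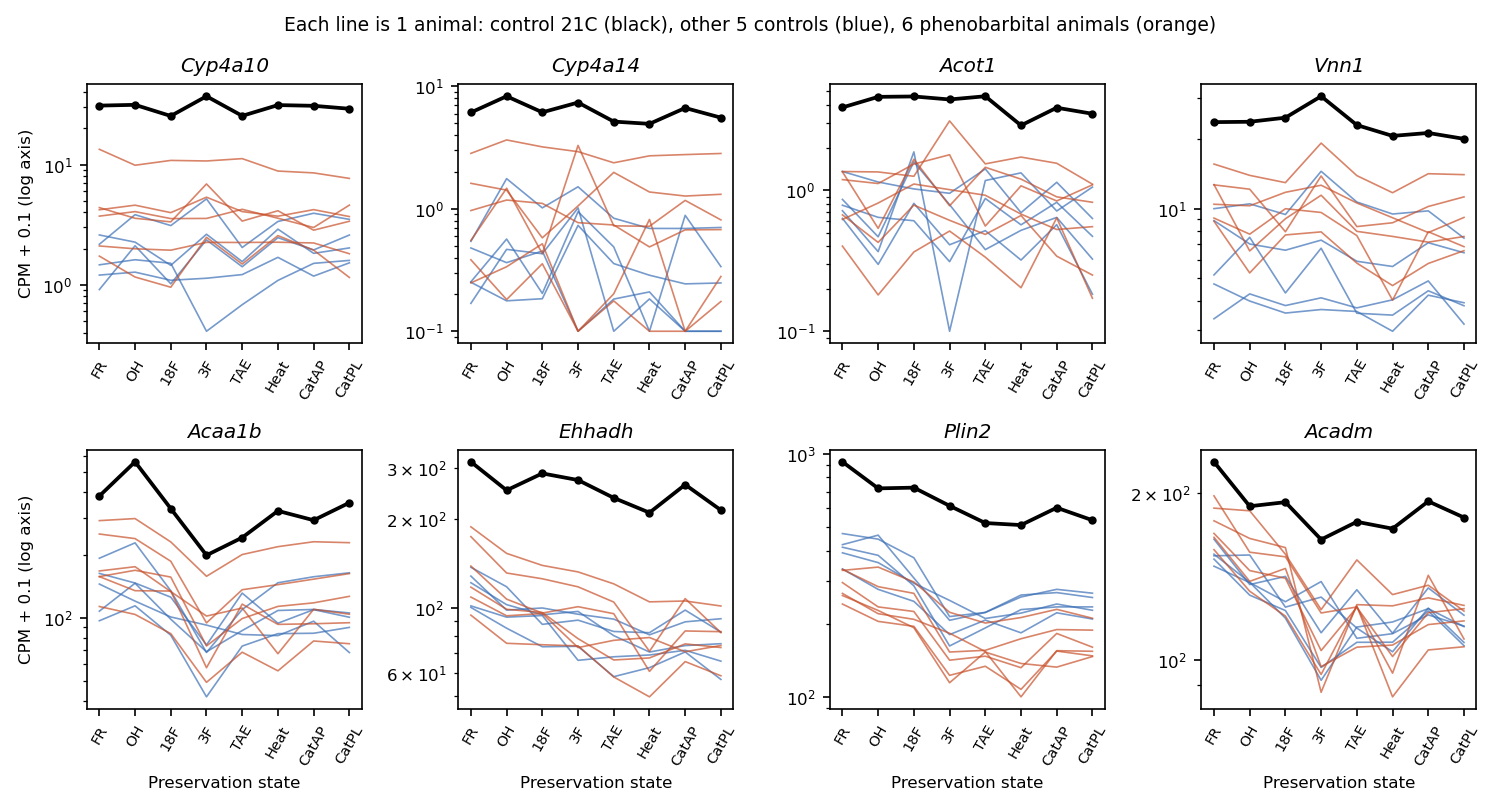
CPM + 0.1 on a log axis for 8 members across the 8 states, 1 line for each animal. Control 21C (black) is above the other 5 controls (blue) in every state in all panels, and treated animals are orange.

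Control 21C stood apart for many members. It had the highest control value in all 8 states for 23 of the 35 members and in at least 6 states for 31. How often 21C was the highest control over all genes was not taken. The counts are therefore not shown to be particular to the members. Cyp4a10 lay between 25.3 and 37.0 CPM in the 8 libraries of 21C and between 0.310 and 5.08 CPM in those of the other 5 controls, and was 13.2 to 22.7 times their median. Cyp4a14 was at 4.85 to 8.21 CPM against 0 to 1.66 CPM. Ehhadh ran from 211 to 314 CPM in 21C and from 56.9 to 137 CPM in the others, and Acaa1b was 2.64 to 3.82 times their median. Smaller ratios held for mitochondrial enzymes, for instance 1.37 to 1.57 for Acadm. The 4 members outside that count were Cpt1a and Acadvl, for which 21C was the highest control in 4 states, Cpt1b, in 1 state, and Cd36, in none. Among treated animals 20D had the highest Cyp4a10 and Acaa1b in all 8 states, and its frozen Cyp4a10 level was 13.3 CPM. The libraries of 21C share 1 liver, so the 8 states do not check each other on this point. When 21C was left out of the phenobarbital comparison the frozen calls were Ppara, Fgf21, Plin2, Plin5 and Cpt1a, all lower, and Cyp4a12a, higher. The log2 sign turned for 6 of 30 members there, among them Cyp4a10, Ehhadh and Acot1, none of them called. It turned for 10 of 31 members in OH, 7 in 3F, 6 in 18F and in TAE, 5 in CatPL, 4 in CatAP and 3 in Heat, again with none of them called. Without 21C the calls went from 10 to 5 in Heat and from 5 to 3 in 18F, but from 6 to 7 in CatAP. In CatAP Plin2, lower, and Acot4, higher, were then called (edgeR adjusted p = 0.0337 and 0.0433), while Fgf21 lost its call (0.0777). Plin2 was then also called in TAE (edgeR adjusted p = 0.0338).

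Members differed in how their values spread. The spread between animals of 1 treatment, taken as the SD of animal means over 8 states on the log2 CPM scale, was widest for Cyp4a14 (1.53), Cyp4a10 (1.38), Fgf21 (1.06) and Cyp4a31 (1.06). The SD between the 8 state means was 0.25, 0.14, 0.34 and 0.18 for the same genes. Acadvl showed the reverse, with 0.11 between animals and 0.49 between states. Acaa2 (0.23 and 0.50), Hadha (0.16 and 0.36) and Plin4 (0.43 and 0.66) were likewise wider between states. For Ppara the values were 0.29 and 0.13 and for Cpt1a 0.23 and 0.11. In these animal means control 21C lay above the next control by 3.18 for Cyp4a10, 2.69 for Cyp4a14, 0.93 for Cyp4a31 and 0.41 for Fgf21. Cyp4a14 and Cyp4a31 had 1400 and 1394 counts over 96 libraries, so the prior count weighs on their values.

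**Figure D4:**
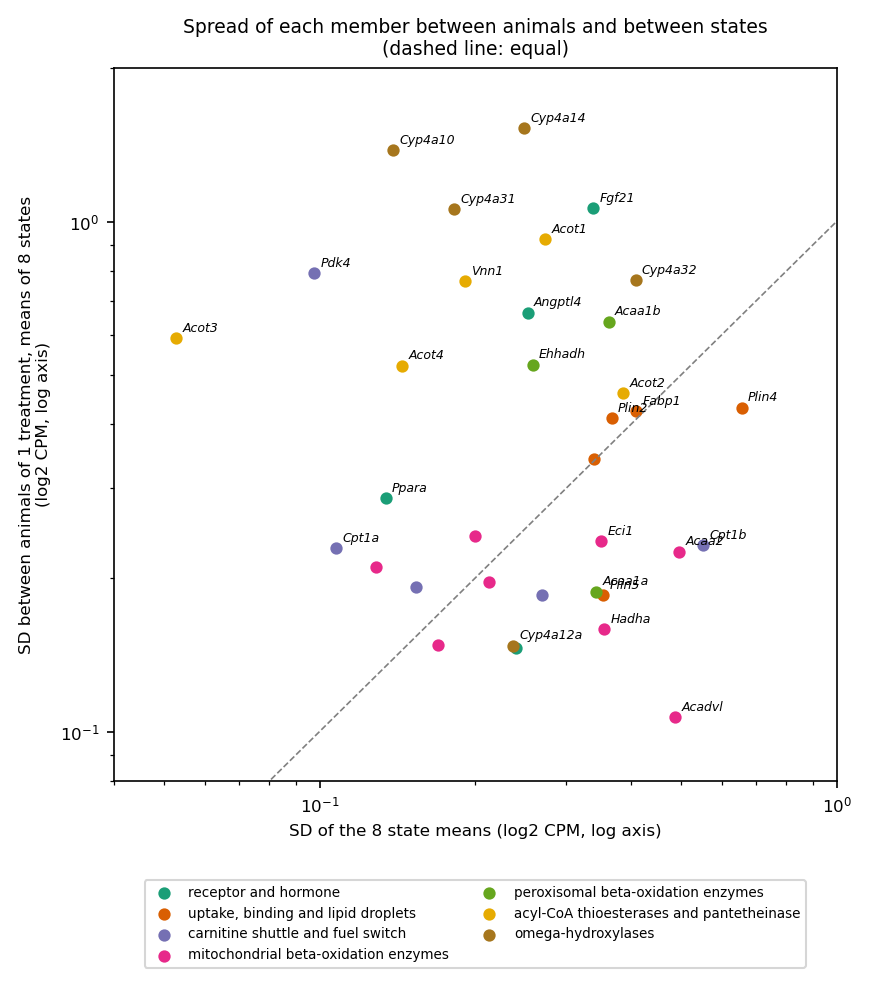
SD of animal means within treatment (y axis) against SD of the 8 state means (x axis) for each member, both of log2 CPM and on log axes, coloured by role. Cyp4a10 and Cyp4a14 lie above the dashed line of equality, and Acadvl, Acaa2 and Hadha below it.

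Levels per kilobase of exon in frozen controls, the only scale used here to set genes side by side, spanned 5 orders of magnitude. Fabp1 led with 4173 ± 865 CPM per kilobase (SD, n = 6), followed by Acaa2 (413 ± 54), Plin2 (141 ± 62) and Acadvl (128 ± 6), of which Plin2 and Acadvl did not differ beyond their spread. Ppara (72.4 ± 16.9) and Cpt1a (71.1 ± 14.7) were alike within their spread. Cyp4a12a, at 103 ± 10, was far above Cyp4a10 (3.06 ± 5.69) and Cyp4a14 (0.462 ± 0.909). Cpt1b and Acot3 closed the order at 0.0583 and 0.0389 CPM per kilobase.

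Each preserved state was compared with FR over the same 12 animals, 12 libraries against 12, with treatment as a covariate. Most of the members called were lower than in frozen liver, among them the thiolase Acaa2, the trifunctional subunit Hadha and the carnitine transferase Cpt2 in all 7 states. In OH, 6 fell and 1 rose of 29 tested, beside 15.8% and 17% of all genes. In 18F, 12 fell and 0 rose of 32, beside 20.6% and 20.5%. In 3F, 16 fell and 2 rose of 31, beside 28.7% and 31.8%. TAE had 19 falls and 1 rise of 31, beside 27.4% and 31.6%, and Heat 18 falls of 30, beside 28.6% and 28.4%. CatAP had 17 falls of 31, beside 22.6% and 27.8%, and CatPL 18 falls and 1 rise of 30, beside 27.7% and 31.5%. The median change of tested members ran from -0.04 in OH to -0.47 in TAE and Heat, while that of all genes lay between -0.01 and 0.04.

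Pairing by animal raised the number of calls. With the animal as a block 12 members fell and 4 rose in OH, 24 and 1 in 18F, 21 and 4 in 3F, 25 and 3 in TAE, 23 and 2 in Heat, 24 and 2 in CatAP, and 24 and 2 in CatPL. In that fit 18F had as many falls as CatAP and CatPL. The share of all genes called with the block is not reported here. These counts therefore cannot be read as a trait of the members. Scaling by library totals alone moved the median of all genes up by 0.04 to 0.27 on the log2 scale in these 7 comparisons. Under it 4 members fell and 3 rose in OH, 6 fell in 18F, 16 fell and 3 rose in 3F, 12 fell and 2 rose in TAE, 13 fell and 1 rose in Heat, 9 fell and 1 rose in CatAP and 11 fell and 2 rose in CatPL. The share of higher genes among all called genes moved with it, from 51.9% to 80.4% in OH, from 49.9% to 86.3% in 18F and from 53.5% to 78.0% in TAE, but only from 52.6% to 56.2% in 3F. It moved from 49.8% to 79.4% in Heat, from 55.2% to 82.7% in CatAP and from 53.2% to 82.6% in CatPL. Falls of members below are therefore relative to the bulk of genes.

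Acaa2 had the largest fall in 6 of the 7 states. Its mean over 12 animals went from 621 CPM in FR to 234 CPM in 3F (log2 -1.38 ± 0.13, edgeR adjusted p = 1.05e-09) and to 414 CPM in 18F (-0.59 ± 0.09), lower in 12 of 12 animals each time. Acadvl fell from 325 to 126 CPM in 3F (-1.34 ± 0.10) and by 1.01, 1.09, 0.74 and 0.79 in TAE, Heat, CatAP and CatPL. Hadha fell from 320 CPM to 157 CPM in 3F and in all 7 states, the smallest change being -0.35 ± 0.06 in OH. Cpt2 and Acaa2 were the other members that fell in all 7. The third of the largest falls in 3F was Plin4, from 3.53 to 1.44 CPM (-1.32 ± 0.28, adjusted p = 0.000231).

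Cd36 had the largest fall in OH, from 33.1 to 21.4 CPM (-0.63 ± 0.15, edgeR adjusted p = 0.00219), and the third largest in CatPL (-0.80 ± 0.14), but stood at 33.4 CPM in 3F. Plin4 rose in OH (0.51 ± 0.19) and CatPL (0.74 ± 0.21). In 3F the rises were Acot2, from 0.807 to 1.56 CPM (0.97 ± 0.27), and Cyp4a12a, from 293 to 398 CPM (0.48 ± 0.09), and Acot2 also rose in TAE (0.56 ± 0.23). Without the block Ppara fell in 3F, from 218 to 163 CPM, and Cpt1a in Heat and CatPL, the largest change being -0.28. With the animal as a block Ppara was called in every state but OH and Cpt1a in TAE, Heat, CatAP and CatPL. Under library totals Cpt1a in Heat turned to 0.04 and Cyp4a12a in CatPL to 0.07. Hepatocyte markers moved down as well, with 6 of 10 lower in OH and in 3F, 8 in 18F and 9 in each of the other 4 states. Their summed level in controls ran from 102759 to 125595 CPM in FR and from 70333 to 98306 CPM in 3F, and their part in the members' falls was not tested.

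**Figure D5:**
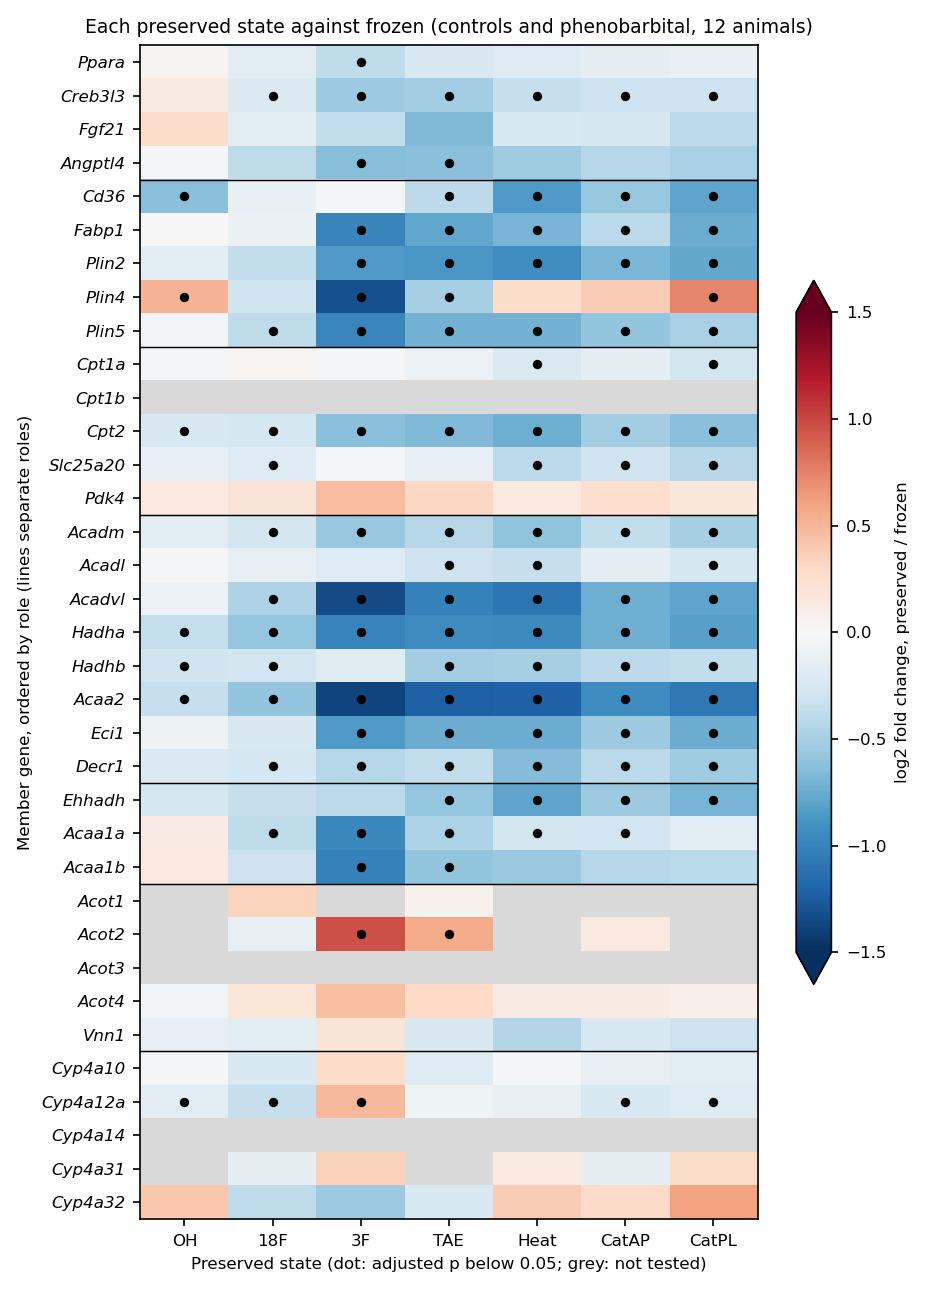
Log2 fold change of each preserved state over frozen (colour, saturated beyond 1.5) for the 35 members over 12 animals per state. Dots mark adjusted p below 0.05 and grey cells were not tested, and Acaa2, Hadha and Cpt2 carry a dot in all 7 columns.

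The workups of the 3-month formalin material were compared with 3F itself, which asks what they gave back. Against 3F, TAE had 2 members higher and 2 lower of 30 tested, beside 7.89% and 9.42% of all genes. Heat had 6 higher and 4 lower of 29, beside 23.5% and 23.3%. CatAP had 11 and 4 of 30, beside 23.8% and 23.6%, and CatPL 10 and 4 of 29, beside 30.8% and 29%. With the animal as a block these became 10 and 5 in TAE, 10 and 9 in Heat, 15 and 9 in CatAP and 12 and 9 in CatPL. The share of all genes called in those blocked fits is not reported here, so the members cannot be set against it. With library totals they were 8 and 1 in TAE, 12 and 2 in Heat, 14 and 1 in CatAP and 13 and 2 in CatPL. The share of higher genes among all called genes then went from 45.6% to 91.7% in TAE, from 50.2% to 76.2% in Heat, from 50.2% to 73.9% in CatAP and from 51.5% to 72.2% in CatPL.

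Plin4, Cyp4a32 and Acaa1a were the 3 largest rises in Heat, CatAP and CatPL. Plin4 went from 1.44 CPM in 3F to 4.41, 4.52 and 5.90 CPM (log2 1.64 ± 0.30, 1.70 ± 0.28 and 2.09 ± 0.29), higher in 12 of 12 animals. Cyp4a32 went from 14.1 to 28.8, 26.2 and 33.3 CPM (0.98 ± 0.30, 0.85 ± 0.29 and 1.18 ± 0.31). In Heat, CatAP and CatPL both genes thus lay above their frozen means of 3.53 CPM (Plin4) and 22.6 CPM (Cyp4a32). Against frozen liver itself, without the block, Cyp4a32 was not called in any state. In that fit Plin4 was called higher in CatPL but not in Heat or CatAP. Acaa1a rose by 0.74, 0.69 and 0.83, and in TAE by 0.51 ± 0.11, from 47.2 to 67.4 CPM. Its mean stayed below the frozen 94.7 CPM in all 4 workups. Acadvl also rose in TAE (0.34 ± 0.11, edgeR adjusted p = 0.0325) and in CatAP (0.61 ± 0.10). Downward, Cd36 led in Heat (-0.78 ± 0.17) and CatPL (-0.74 ± 0.16), and fell in CatAP (-0.53 ± 0.17). Cyp4a12a fell in all 4 workups, by 0.53 to 0.70. Slc25a20 fell in Heat (-0.32 ± 0.09) and CatPL (-0.36 ± 0.09), Hadhb in TAE (-0.33 ± 0.09), and Acot2 in CatAP (-0.81 ± 0.32, adjusted p = 0.0409). In none of these workups did Acaa2 return to its frozen mean of 621 CPM, the highest of the means being 321 CPM in CatAP.

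A wider set of 92 genes in 8 lists gives the surroundings of the members in frozen liver under phenobarbital. Of 85 tested 6 rose and 8 fell, beside 5.89% and 3.53% of all genes, with a median log2 fold change of -0.11. The share of rises was near that of all genes. In a mixed list of receptor partners, coactivators and other receptors, Rxra, which encodes a form of the partner RXR, fell (-0.29 ± 0.07). Fgfr4, the hepatic receptor of the FGF19 family, also fell (-0.34 ± 0.09), and Pparg (0.82 ± 0.20), from 1.44 to 2.57 CPM, rose. Of 12 uptake and activation genes Lpl, the lipase that ANGPTL4 inhibits, rose from 45.9 to 73.3 CPM (0.66 ± 0.11, edgeR adjusted p = 0.00161), and so did Fabp4 (0.78 ± 0.19). Crot, a peroxisomal enzyme that makes medium-chain carnitine esters, fell from 820 to 591 CPM (-0.48 ± 0.10, adjusted p = 0.00918). In mitochondria Etfdh (-0.29 ± 0.08) and Mlycd (-0.32 ± 0.07), which removes the CPT1 inhibitor malonyl-CoA, fell. Fads2 (-0.69 ± 0.09) and Slc25a42 (-0.49 ± 0.13) fell and Cyp4f15 (0.46 ± 0.11) rose. No droplet or lipolysis gene of 8 tested was called.

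Some genes that follow feeding and time of day were called with treatment too, in the comparison in which 3.53% of all genes fell and 5.89% rose. Of 6 fasting-responsive genes tested in frozen liver 3 fell and none rose, namely Pck1 (2266 to 880 CPM, -1.38 ± 0.21, edgeR adjusted p = 0.00132), Tat (-0.60 ± 0.15) and Irs2 (-0.78 ± 0.16), with a list median of -0.75. Of 14 clock genes tested Per1 (-1.40 ± 0.40) and Hlf (-0.43 ± 0.10) fell, with a median of -0.11. Their part in the changes of Ppara, Cpt1a and the other members was not tested.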

How the data were processed

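Liver RNA libraries (strand-specific, depleted of ribosomal RNA, per the labels) from 12 mice in 8 states were deposited by the authors as raw counts per Ensembl gene, whole and not normalized. The submitters' processing notes list CASAVA, STAR 2.5, edgeR, GRCm38 and mm10 without roles. How reads were assigned to genes, including strand, was not given in the sources used here, and near-identical and overlapping genes are uncertain. The 92 spike-in lines (110 counts) were left out. GENCODE M21 on GRCm38 gave symbols, coordinates and exon lengths for 46954 of 47373 genes. Count columns without a sample numbered 0, and no 2 libraries held identical counts.

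Tests used edgeR 4.0.16 in R 4.3.3 (quasi-likelihood F test, TMM scaling, default filter at about 10 counts, Benjamini-Hochberg adjustment over all genes at 0.05). SE was taken as log2 fold change over root F. Levels are CPM with 1 TMM scaling over 96 libraries, and log2 CPM used a prior count of 2. Comparisons were phenobarbital against control within each state and in animal sums, 11 between states with treatment as covariate, and 7 interactions, 27 in all. Alternatives were DESeq2 1.42.0, limma 3.58.1 voom with quality weights, RLE scaling, library totals alone, no filter, thinning before summing, removal of mitochondrially encoded genes, the animal as a block and 96 fits leaving out an animal. Added after seeing the data were sums without control 21C and fits without the shallowest library. Same-numbered libraries come from 1 animal by their titles. Over 13050 genes their deviations correlated above 0.1 in 335 of 336 pairs (median 0.53, other animals -0.09).

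The scripts were tested on simulated data. Members and lists were chosen with earlier results of these data known. Named genes were all members, the 3 largest called rises and falls of each state comparison, and up to 4 called genes of each pathway list, some of which are not reported here. P-values of the phenobarbital comparisons, within a state and in sums, treat the 6 animals of a group as its replicates. Those between states and of the interactions treat the libraries of an animal as separate replicates, except with the animal as a block.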

Additional observations from a re-analysis of the deposited data

Results flagged for a closer look

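Among 70 sets of 6 animal means (35 members in each treatment, log2 CPM averaged over the 8 states), 11 had an animal whose gap to its nearest neighbour, divided by the range of the set, was above Dixon's critical value for 6 values. Chance alone gives about 1 such set in 20. In 10 of the 11 the animal was control 21C at the top. The ratios were 0.767 for Ehhadh, 0.760 for Acadm, 0.727 for Plin2, 0.697 for Eci1, 0.684 for Cyp4a10, 0.660 for Cyp4a12a, 0.656 for Decr1, 0.652 for Acot4 and 0.633 for Acot1. Acot3 had 0.881, but with 92 counts over 96 libraries most of the other controls were at 0, where the prior count sets their log2 values, so this ratio says little. The gap of 21C to the next control was 3.18 for Cyp4a10, 1.40 for Ehhadh and 0.15 for Cyp4a12a on the log2 scale. The remaining set was Plin5 in phenobarbital animals, where 75C was lowest with a ratio of 0.747 and a gap of 0.29. The members are not independent of each other, so the 10 sets do not count as 10 separate observations. The same ratio was not taken over all genes, so the 10 sets are not shown to be particular to the members.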

How the results depend on the processing

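Counts of called members (main value first) moved by over 1.5 times as follows. Phenobarbital in 18F gave 5, with 8 by DESeq2 and 3 by voom. In 3F it gave 2, with 5 by DESeq2 and 5 without the filter, and in TAE 5, with 3 by voom. Sums gave 10, and 6 without 21C. With the animal as a replicate block 16 members were called in OH (7), 25 in 18F (12) and 26 in CatAP (17) against FR, and 15 in TAE (4), 19 in Heat (10) and 24 in CatAP (15) against 3F. How the share of all genes moved under the block is not reported here. With library totals there were 6 in 18F and 10 in CatAP against FR, and 9 in TAE against 3F. Leaving out each animal gave 5 to 8 calls in FR, 6 to 10 in OH, 2 to 5 in 18F, 1 to 3 in 3F, 3 to 5 in TAE, 5 to 14 in Heat, 4 to 9 in CatAP and 4 to 8 in CatPL. Under the block no call between states was lost and no interaction was gained.

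Signs turned for members that were not called. With voom in frozen liver these were Ehhadh (0.0900), Eci1 (0.0465), Acaa2 (0.0484) and Cyp4a10 (0.75). Leaving out an animal gave ranges over 0 for Acaa1b (-0.0949 to 0.42), Ehhadh (-0.25 to 0.20), Eci1 (-0.0884 to 0.0917), Decr1 (-0.0521 to 0.14), Creb3l3 (-0.0843 to 0.0226), Acaa2 (-0.0888 to 0.0341), Acot4 (-0.0489 to 0.40), Cyp4a10 (-1.03 to 1.61) and Acot1 (-0.75 to 0.11). Sums without 21C turned Acaa1b (0.32), Ehhadh (0.14), Eci1 (0.0249), Decr1 (0.00886), Cyp4a14 (1.56), Acadm (0.0922), Cyp4a10 (1.17) and Acot1 (0.27), and thinning turned Cyp4a31 (-0.0301). Of called values, library totals turned Cpt1a in Heat (0.0372) and Cyp4a12a in CatPL (0.0672) against FR. Of 985 alternative values for the 154 calls between states 65 no longer passed, 41 of them with library totals. The cause was not tested. Where an animal was left out, the loss of that animal and the smaller group cannot be told apart. Depth limits Acot1, Acot2, Acot3, Cpt1b, Cyp4a14 and Cyp4a31, which failed the filter in at least 3 states.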

Other observations

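Control 21C was also high for genes of the pathway lists outside the members. These were picked after their values were seen and carry no test. In frozen liver G0s2, an inhibitor of droplet lipolysis, was at 165 CPM in 21C and between 9.55 and 49.3 CPM in the other 5 controls. Acsl1, which activates long-chain fatty acids, was at 2200 CPM against 808 to 1091 CPM. Aldh3a2, a fatty aldehyde dehydrogenase, was at 153 CPM against 42.0 to 73.4 CPM. Fasting-responsive Pck1 was not outside the other controls in 21C, at 1963 CPM against 1587 to 3801 CPM. Nor was Igfbp1, at 34.6 CPM against 27.8 to 41.4 CPM. The member Fgf21, a fasting hormone, was highest in 21C, at 8.89 CPM against 1.82 to 8.68 CPM. So were the members Pdk4, at 16.2 CPM against 4.42 to 12.1 CPM, and Angptl4, at 131 CPM against 32.7 to 82.9 CPM. Other fasting-responsive genes are not reported here for 21C, and the part of feeding in its values was not tested. Of the clock genes Dbp was at 5.07 CPM in 21C and between 1.59 and 17.1 CPM in the others. Cyp2b10 was at 0.294 CPM in 21C, against 0.0689 to 0.369 CPM.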
